A study of Danio rerio with 12 samples.

Results

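This comparison sets zebrafish embryos that carried a morpholino against tif1g and were kept in leflunomide against embryos that carried a control morpholino and were also kept in leflunomide. It was chosen from the labels of morpholino and drug alone, and it holds 6 of the 12 libraries of the series, 3 in each group, which share replicate numbers 1, 2 and 3. The tif1g group had received 1 ng of an oligo directed at the start codon of tif1g, the gene listed as trim33, and the control group 1 ng of a standard oligo. Both groups were wild-type TU embryos, were injected at the start of cleavage, were kept in 7 µM leflunomide from 5.3 to 10 hours after fertilisation, and were frozen whole at the tailbud stage in pools of 109. Since the drug was present on each side, the comparison asks what the knockdown changes while pyrimidine synthesis is inhibited. The other 6 libraries, tif1g and control morpholino in DMSO, the solvent, enter only the last comparison below.

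The protein TIF1γ (TRIM33) is a ubiquitin ligase and chromatin reader of the TRIM family. It is known to act on Smad proteins, the transcription factors of Nodal, TGF-beta and BMP signalling, and in zebrafish blood precursors to favour the release of paused RNA polymerase II. Zebrafish that lack it, the moonshine mutants, make almost no red blood cells. Leflunomide blocks dihydroorotate dehydrogenase, the enzyme encoded by dhodh, which makes the pyrimidine precursor orotate in the mitochondrion and passes the electrons to coenzyme Q. A morpholino is a stable antisense oligo, and at a start codon it blocks translation without removing the transcript.

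The sequences of both oligos define the groups, so they are shown as the submitters gave them, 5′ to 3′, with the CAT that is complementary to an ATG in capitals.
tif1g morpholino: atcttggcctttgttgtccgcCATc
control morpholino: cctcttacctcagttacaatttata
Each has 25 bases. The tif1g oligo holds 1 CAT, which starts at base 22 counted from the 5′ end, and 52% of its bases are G or C, against 0 CAT and 32% in the control oligo. Only 1 oligo against tif1g was used, and no mutant or rescued embryo was analysed here, so effects of the loss of trim33 and other effects of this oligo cannot be told apart.

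The libraries held 27714933 to 29691037 counts in the tif1g group and 27574593 to 29182933 in the control group. Principal component analysis put 47.9% of the variance on the leading axis, with the tif1g libraries at 32.6 to 38.4 and the control libraries at -38.2 to -32.6. The next axis held 17.8% and ordered the libraries by replicate number in both groups. Marker genes matched by symbol for the 10 cell types and layers looked for in a tailbud embryo all had counts, some of them too few to be tested. Counts differed between replicates of a group by 7.09 to 9.79 in chi-square per degree of freedom over genes with at least 20 counts, which is beyond counting error.

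The trim33 transcript (ENSDARG00000016181) was several times more abundant in embryos with the oligo directed at it. Its level was 445, 430 and 429 CPM in tif1g replicates 1, 2 and 3 and 82.9, 89.1 and 81.2 CPM in control replicates 1, 2 and 3, where CPM is the count divided by the library total on the usual CPM scale, with TMM factors between libraries. No tif1g library came near a control library. The fold was 5.15, a log2 fold change of 2.36 ± 0.05 (SE, adjusted p = 3.19e-11). This RNA level does not measure a block of translation. Of its relatives in the TIF1 family, trim24 had 36.6, 38.9 and 34.4 CPM in tif1g and 46.5, 40 and 36.7 CPM in control libraries, and trim33l had 22.3, 21.5 and 25.4 CPM in tif1g and 27.9, 26.1 and 25.4 CPM in control libraries. Neither passed the test (adjusted p = 0.199 for trim24 and 0.113 for trim33l), while with a replicate block, the replicate number as a term of the model, both were lower and passed (adjusted p = 0.042 for trim24 and 0.0347 for trim33l).

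Of 20655 genes tested, 2511 rose (12.2%) and 2708 fell (13.1%) in tif1g embryos at an adjusted p under 0.05 in the quasi-likelihood test of edgeR, 25.3% in all. Most of these changes were small. The median size of a called change was 0.45 on the log2 scale, and 62.3% of called genes changed by less than 1.5-fold. A change of at least 2-fold was called for 339 genes that rose and 501 that fell, and of at least 4-fold for 73 that rose and 55 that fell. The groups did not overlap in 4094 genes with higher tif1g libraries (19.8%) and in 4311 with lower ones (20.9%). Genes named below were mostly taken for a small p or a large change. Their lack of overlap thus follows largely from that choice and is no separate evidence. With the replicate number as a block in the model, 3873 genes rose (18.8%) and 4135 fell (20%), and all 5219 calls made without the block were among them. Counts of list members with the block, given below, are to be read beside these shares of 18.8% and 20%. Without replicate number 2 in both groups the counts were 1162 higher and 1327 lower, and without number 1 they were 1552 and 1702. Because each library is a pool of whole embryos, fewer cells of a type and less RNA per cell cannot be told apart in any change described here.

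**Figure D1:**
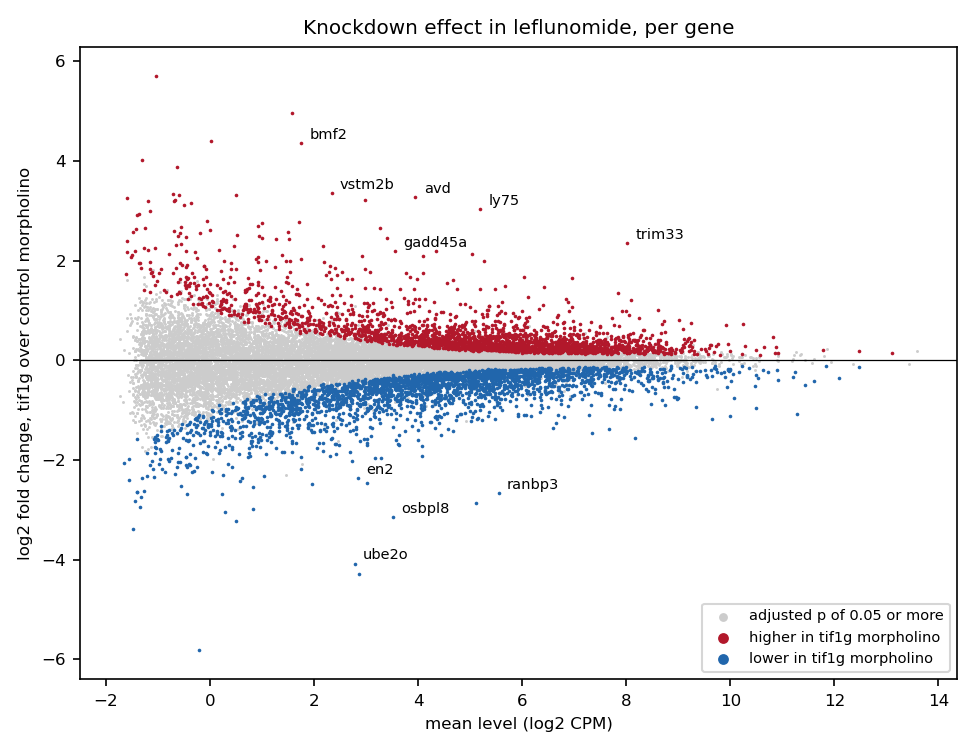
Each point is 1 of 20655 genes, with its mean level over the 6 leflunomide libraries on the x axis (log2 CPM) and its log2 fold change, tif1g over control morpholino, on the y axis. Red genes were called higher (2511), blue genes lower (2708) and grey genes did not pass, and trim33 lies at a log2 fold change of 2.36 ± 0.05 (SE).

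Genes with large changes were of many kinds. The gene bmf2, which encodes a pro-apoptotic protein of the Bcl-2 family, had 6.57, 6.4 and 5.87 CPM in tif1g and 0.344, 0.441 and 0.11 CPM in control libraries. It was under 1 CPM in every control library, and its log2 fold change was 4.36 ± 0.31 (adjusted p = 9.52e-07). The lectin receptor gene ly75, known for endocytosis, had 63.1, 63.1 and 69.7 CPM in tif1g and 7.61, 7.7 and 8.55 CPM in control libraries (3.04 ± 0.08, adjusted p = 2.07e-10). In the other direction, ube2o (ENSDARG00000100674), a gene for a ubiquitin-conjugating enzyme, had 0.902, 0.603 and 0.756 CPM in tif1g and 14.5, 12.7 and 11.3 CPM in control libraries. It was under 1 CPM in each tif1g library, and its log2 fold change was -4.08 ± 0.19 (adjusted p = 4.95e-08). The lipid transfer gene osbpl8 had 2.63, 1.71 and 2.67 CPM in tif1g and 20.3, 21.8 and 19.4 CPM in control libraries (-3.14 ± 0.16, adjusted p = 6.95e-08). The gene ranbp3, whose protein binds Ran and is known in mammals to help export Smad proteins from the nucleus, had 12, 12.1 and 13.8 CPM in tif1g and 77.5, 80.8 and 83.6 CPM in control libraries (-2.67 ± 0.07, adjusted p = 2.07e-10). The groups did not overlap for any of these 5 genes.

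Further genes rose several-fold. The avidin gene avd had 23.2, 26.4 and 34 CPM in tif1g and 2.51, 2.88 and 3.25 CPM in control libraries (3.27 ± 0.16), and vstm2b had 8.73, 7.84 and 10.9 CPM in tif1g and 0.861, 0.949 and 0.84 CPM in control libraries (3.36 ± 0.20). The gene gadd45a (ENSDARG00000043581), which answers DNA damage and stress, had 22.6, 19.2 and 15.8 CPM in tif1g and 3.75, 5.46 and 3.36 CPM in control libraries (2.19 ± 0.19, adjusted p = 1.88e-05). Every tif1g library was above every control library for these 3 genes. Other large rises were those of the phosphoinositide phosphatase gene inpp4a (ENSDARG00000070995, 2.65 ± 0.29), the monocarboxylate transporter gene slc16a12 (2.45 ± 0.19), strc1 (2.2 ± 0.14), the finTRIM gene ftr64 (2.11 ± 0.27) and the metabotropic glutamate receptor gene grm2 (2.1 ± 0.15).

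Among the largest falls was en2 (ENSDARG00000026599), a transcription factor gene of the midbrain and hindbrain boundary, with 2.09, 2.18 and 2.7 CPM in tif1g and 13.4, 12.1 and 10.2 CPM in control libraries (-2.36 ± 0.17, adjusted p = 9.09e-07). The gene crim1, whose membrane protein binds BMP ligands, had 2.06, 2.11 and 2.52 CPM in tif1g and 7.33, 8.68 and 8.88 CPM in control libraries (-1.89 ± 0.17). The groups did not overlap for either gene. On the log2 scale the nuclear receptor gene rora fell by 1.96 ± 0.21, the natriuretic peptide receptor gene npr2 by 1.93 ± 0.19, the doublecortin-like kinase gene dclk1 (ENSDARG00000104664) by 2.02 ± 0.19 and the pyruvate dehydrogenase kinase gene pdk2 (ENSDARG00000020876) by 1.94 ± 0.27.

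The calls of a pair of genes with large falls were lost without some single libraries. Both genes stayed lower whichever library was left out, and within each replicate number the tif1g library was the lower. The slow muscle myosin gene smyhc1 had 1.95, 4.09 and 1.19 CPM in tif1g and 19.7, 13.7 and 7.13 CPM in control libraries (-2.47 ± 0.60, adjusted p = 0.0407). Its call was lost without tif1g replicate 1 (adjusted p = 0.142) or 3 (0.1) and without control replicate 1 (0.0634) or 2 (0.092), and over the alternatives tried its adjusted p ran from 1.06e-08, with the replicate block, to 0.172. The annexin gene anxa2 had 11.2, 5.6 and 4.29 CPM in tif1g and 31.6, 26.8 and 21.2 CPM in control libraries (-1.92 ± 0.39, adjusted p = 0.0235). Its call was lost without tif1g replicate 2 (adjusted p = 0.0828) and without control replicate 1 (0.0679) or 2 (0.064), and over the alternatives its adjusted p ran from 4.01e-13, with the block, to 0.143. In both genes the control libraries were highest in replicate 1 and lowest in replicate 3.

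**Figure D2:**
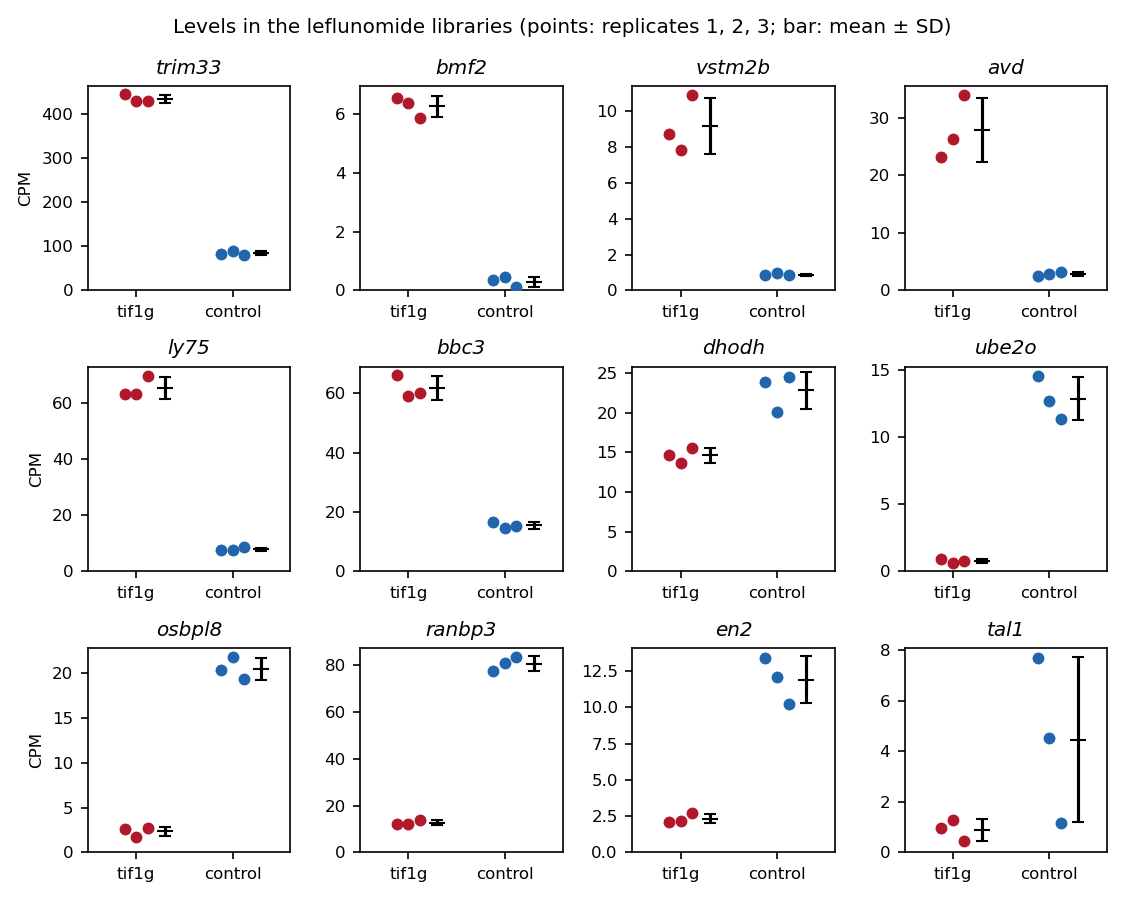
Level in CPM of 12 genes in each leflunomide library, tif1g morpholino in red on the left and control morpholino in blue on the right of each panel, with the mean and SD of 3 libraries as a black bar. The groups do not overlap in the genes shown other than tal1, where control replicate 3 stands below tif1g replicate 2.

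Many genes of the p53 response rose. This response answers DNA damage and nucleolar stress, and its genes halt the cell cycle or start apoptosis. Of 32 members tested 17 rose and 2 fell, beside 12.2% and 13.1% of all genes tested. The median log2 fold change of the members was 0.43, against -0.003 over all genes tested. The gene bbc3 (Puma), a pro-apoptotic target, had 66.2, 58.9 and 60.1 CPM in tif1g and 16.7, 14.5 and 15.2 CPM in control libraries (1.99 ± 0.08, adjusted p = 7.84e-09). The caspase gene casp8 had 25.7, 21.2 and 18.7 CPM in tif1g and 6.82, 6.44 and 7.38 CPM in control libraries (1.67 ± 0.13, adjusted p = 1.93e-06). The Akt inhibitor gene phlda3 had 26.9, 28.7 and 23.1 CPM in tif1g and 7.95, 6.78 and 8.48 CPM in control libraries (1.76 ± 0.12), and rps27l, a ribosomal protein paralog gene, had 57.8, 54.8 and 47.5 CPM in tif1g and 26.9, 26.7 and 26.1 CPM in control libraries (1.01 ± 0.08). None of these 4 genes had a tif1g library within the control range, which their choice by smallest p made likely.

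Other genes of the pathway, picked out after their values were seen, are given for their known place in it. The gene mdm2, which encodes a ubiquitin ligase of the pathway, had 180, 166 and 142 CPM in tif1g and 74, 73.1 and 70 CPM in control libraries (1.17 ± 0.08, adjusted p = 1.95e-06). The cell cycle inhibitor gene cdkn1a (p21) had 27.3, 20.3 and 18.8 CPM in tif1g and 9.78, 7.22 and 7.71 CPM in control libraries (1.43 ± 0.16, adjusted p = 0.000103). Both rose without overlap. The growth-arrest gene btg2, also a member, fell, with 118, 109 and 104 CPM in tif1g and 174, 169 and 174 CPM in control libraries (-0.64 ± 0.05, adjusted p = 3.91e-06). The members that rose numbered 16 to 18 whichever single library was left out, and those that fell numbered 1 when any library other than tif1g replicate 3 was left out.

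The Bcl-2 family, which sets the threshold for apoptosis, did not move in a single direction. Of 24 members 4 rose and 5 fell, with a median of 0, beside 12.2% and 13.1% of all genes tested. The members that fell were 3 without control replicate 1 or control replicate 3, and 8 with the block. Besides bmf2 and bbc3, the pore-forming gene bax rose, with 78.8, 71.8 and 61 CPM in tif1g and 50.3, 48.3 and 49.5 CPM in control libraries (0.51 ± 0.08, adjusted p = 0.000762). The protective gene bcl2a, named after its values were seen, fell, with 1.37, 1.04 and 1.26 CPM in tif1g and 2.51, 2.58 and 2.52 CPM in control libraries (-1.05 ± 0.24, adjusted p = 0.00662).

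**Figure D3:**
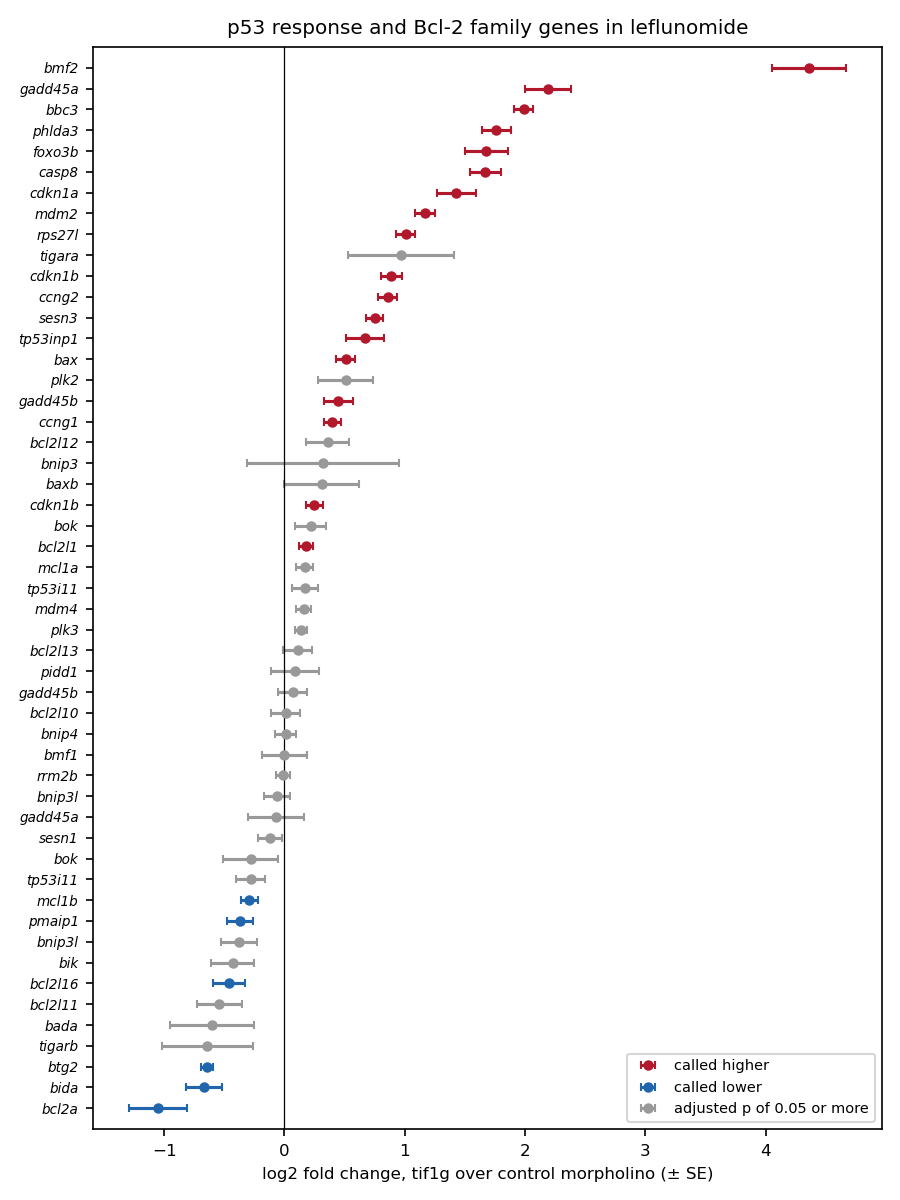
Log2 fold change, tif1g over control morpholino, with its standard error for members of the p53 response and Bcl-2 family lists, ordered by size. Members called higher are red, called lower blue and not passing grey, and bmf2 lies furthest to the right at 4.36 ± 0.31.

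Many of the genes that build ribosomes rose, while genes for the ribosomal proteins were divided. Of 90 ribosome biogenesis and RNA polymerase I genes 49 rose and 6 fell, beside 12.2% and 13.1% of all genes tested. The median was 0.17, and those that rose numbered 37 to 44 whichever single library was left out. The nuclease gene nob1, which trims the RNA of the small subunit, had 164, 156 and 167 CPM in tif1g and 68.5, 62.8 and 75.3 CPM in control libraries (1.24 ± 0.07, adjusted p = 9.1e-08). The polymerase subunit gene polr1c had 60.9, 53 and 54.5 CPM in tif1g and 26.1, 27.8 and 25.7 CPM in control libraries (1.08 ± 0.07), and the nucleolar helicase gene ddx47 had 84.5, 84.6 and 81.2 CPM in tif1g and 50.4, 47.7 and 50.9 CPM in control libraries (0.75 ± 0.05). The groups were apart for each of them. Against the trend, the nucleolar gene nol6 had 107, 94.7 and 97 CPM in tif1g and 225, 199 and 218 CPM in control libraries (-1.1 ± 0.06, adjusted p = 1.37e-07). Of 81 cytosolic ribosomal protein genes 15 rose and 9 fell, with a median of 0.02, beside 12.2% and 13.1% of all genes tested. The members that rose were 6 without tif1g replicate 1, 7 without tif1g replicate 2 or control replicate 2, and 9 without control replicate 1, and with the block 21 rose and 14 fell. Single members differed, and rpl3, a core protein of the large subunit, had 796, 801 and 796 CPM in tif1g and 1140, 1120 and 1200 CPM in control libraries (-0.53 ± 0.04).

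Proliferation genes moved the other way. Of 72 cell cycle and DNA replication genes 36 fell and 0 rose, beside 13.1% and 12.2% of all genes tested, and the median was -0.2. By the unadjusted p of edgeR under 0.05, too, 0 were higher, and DESeq2 called 0 higher. Those that fell numbered 24 to 35 whichever single library was left out. With the block 47 fell and 2 rose, beside 20% and 18.8% of all genes tested. The DNA ligase gene lig1 had 75.2, 72.2 and 80.4 CPM in tif1g and 146, 134 and 139 CPM in control libraries (-0.88 ± 0.06, adjusted p = 4.82e-07). The clamp loader gene rfc1 had 22.7, 24.3 and 26.2 CPM in tif1g and 51.7, 46.8 and 47.5 CPM in control libraries (-1.0 ± 0.08). For both, every tif1g library was below every control library. The topoisomerase gene top2a fell by 0.54 ± 0.06 on the log2 scale and the polymerase gene pola1 by 0.49 ± 0.05. Of 22 histone genes 5 rose and 4 fell, beside 12.2% and 13.1% of all genes tested. The histone gene hist1h2a3 had 321, 318 and 349 CPM in tif1g and 127, 118 and 144 CPM in control libraries (1.35 ± 0.07, adjusted p = 2.36e-07). The members that rose were 8 without control replicate 3 and 10 with the block, and those that fell were 2 without tif1g replicate 1 or 2 or control replicate 3. Histone genes are close copies of each other, and how the counting treated reads that match several copies was not stated in the labels.

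**Figure D4:**
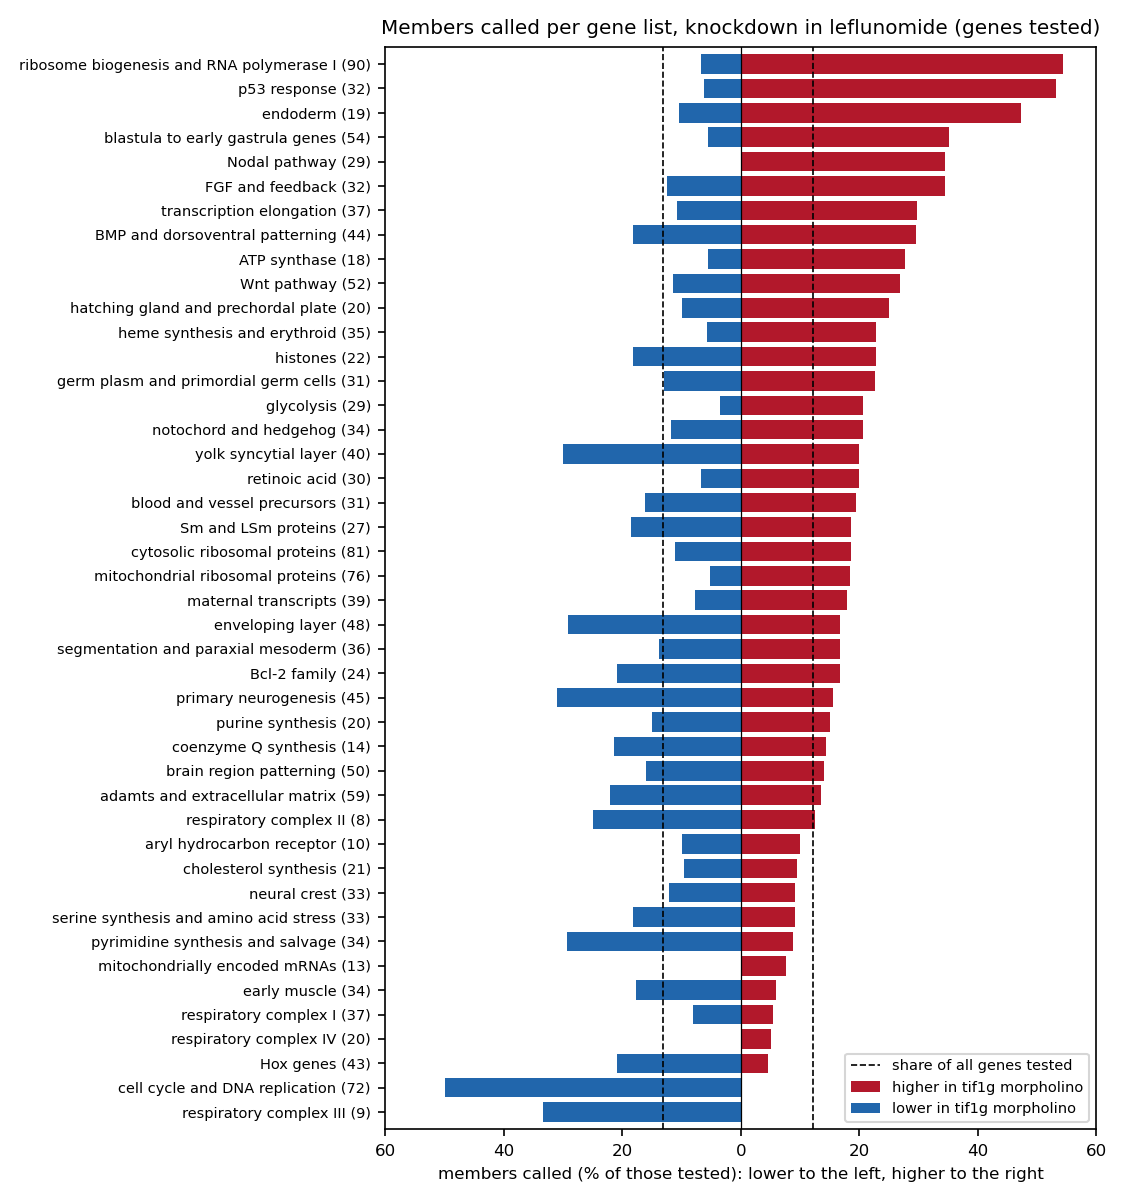
Share of the tested members of each gene list (percent, lists with at least 8 tested members) that were called lower, to the left, or higher, to the right, in tif1g against control embryos in leflunomide. The dashed lines mark the shares over all genes, 13.1% lower and 12.2% higher, and ribosome biogenesis and the p53 response reach furthest to the right while the cell cycle reaches furthest to the left.

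The pathway that leflunomide inhibits was lower in tif1g embryos at several steps. Of 34 pyrimidine synthesis and salvage genes tested 3 rose and 10 fell, with a median of -0.12, beside 12.2% and 13.1% of all genes tested. The transcript of the drug target, dhodh, had 14.6, 13.7 and 15.5 CPM in tif1g and 23.8, 20.1 and 24.5 CPM in control libraries (-0.64 ± 0.10, adjusted p = 0.000526). The gene cad, whose product carries out the opening steps of pyrimidine synthesis, had 857, 763 and 795 CPM in tif1g and 1430, 1280 and 1350 CPM in control libraries (-0.75 ± 0.05, adjusted p = 9.09e-07). The gene umps, whose product follows dhodh in the pathway and which was named after its values were seen, had 83.7, 86.9 and 89.4 CPM in tif1g and 103, 102 and 108 CPM in control libraries (-0.26 ± 0.05, adjusted p = 0.00241). All 3 genes of the route to UMP thus fell without overlap. The salvage kinase gene uck2, which makes UMP from uridine by another route, rose, with 59.8, 65.1 and 61.5 CPM in tif1g and 30.6, 34.4 and 31.9 CPM in control libraries (0.94 ± 0.07, adjusted p = 9.09e-07). The ribonucleotide reductase gene rrm2 (ENSDARG00000020711) had 85.5, 89 and 77.3 CPM in tif1g and 117, 140 and 135 CPM in control libraries (-0.64 ± 0.07). The members that fell numbered 8 to 10 whichever single library was left out, and those that rose were 1 without tif1g replicate 2 or control replicate 2 or 3, and 5 with the block.

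Genes of coenzyme Q and of the respiratory chain, which take up the electrons of the reaction, included rises and falls. Over all genes tested 12.2% rose and 13.1% fell, 25.3% in all, and the calls in complex I and complex IV were below that share. Of 14 coenzyme Q synthesis genes 2 rose and 3 fell. The methyltransferase gene coq5 had 8.05, 8.31 and 6.88 CPM in tif1g and 11.5, 12.4 and 11 CPM in control libraries (-0.59 ± 0.12). In complex I 2 of 37 rose and 3 fell, in complex II 1 of 8 rose and 2 fell, in complex III 0 of 9 rose and 3 fell, in complex IV 1 of 20 rose and 0 fell, and in the ATP synthase 5 of 18 rose and 1 fell. The complex I gene ndufa2 had 1.73, 3.32 and 2.74 CPM in tif1g and 8.3, 8.34 and 8.7 CPM in control libraries (-1.7 ± 0.20, adjusted p = 7.25e-05), and the complex III gene uqcrfs1 had 69.7, 70.9 and 63.4 CPM in tif1g and 105, 104 and 108 CPM in control libraries (-0.64 ± 0.06). Both fell without overlap. By the unadjusted p under 0.05 in edgeR and by DESeq2 there were also 0 rises in complex III and 0 falls in complex IV. With the block 18.8% of all genes tested rose. The rises with it were 4 in complex I, 2 in complex II, 1 in complex III and 2 in complex IV. Such small counts moved with single libraries. The rises were 1 in coenzyme Q synthesis when any library but tif1g replicate 1 was left out, 1 in complex I without tif1g replicate 2 or 3 or control replicate 2, and 0 in complex IV when any library but control replicate 3 was left out. In complex II they were 0 without tif1g replicate 1 or control replicate 2, and 1 fell without control replicate 2, while in complex III 1 rose without control replicate 3. In the ATP synthase they were 3 without tif1g replicate 1 or control replicate 1 or 3, and 1 without tif1g replicate 2 or control replicate 2. Of the 13 mitochondrially encoded mRNAs 1 rose, 4 without tif1g replicate 2 and 8 with the block.

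Of 29 glycolysis genes 6 rose and 1 fell, with a median of 0.29, beside 12.2% and 13.1% of all genes tested. The rises were 2 without control replicate 1 and 12 with the block, while 3 fell without tif1g replicate 2. The gene gapdh had 125, 133 and 137 CPM in tif1g and 68.8, 74.2 and 73.1 CPM in control libraries (0.87 ± 0.06, adjusted p = 4.15e-07). The hexokinase gene hk1, at the entry of the pathway, had 28.8, 35.8 and 25.9 CPM in tif1g and 58.8, 60.3 and 54.1 CPM in control libraries (-0.93 ± 0.11), so the members did not move together. In the list of serine synthesis and amino acid stress, where 3 of 33 rose and 6 fell, or 5 and 12 with the block, the gene phgdh, which opens serine synthesis, had 31.2, 34.6 and 33.8 CPM in tif1g and 56.2, 55 and 56.1 CPM in control libraries (-0.75 ± 0.06).

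The machinery of transcription elongation, with which TIF1γ is known to interact, changed in part. Of 37 genes 11 rose and 4 fell, with a median of 0.09, beside 12.2% and 13.1% of all genes tested. The rises were 7 without tif1g replicate 2 and 17 with the block. The cyclin T gene ccnt2 (ENSDARG00000036510), a subunit of the kinase that releases paused polymerase, had 389, 391 and 383 CPM in tif1g and 210, 224 and 216 CPM in control libraries (0.84 ± 0.04, adjusted p = 9.1e-08). The elongation factor gene ell2 had 141, 124 and 125 CPM in tif1g and 95.2, 92 and 95.8 CPM in control libraries (0.46 ± 0.06). Both rose without overlap. The gene supt16h, a subunit of the histone chaperone FACT, fell, with 287, 298 and 314 CPM in tif1g and 391, 388 and 405 CPM in control libraries (-0.40 ± 0.05).

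Genes of blood and vessel precursors, the cells for which trim33 is best known, included both rises and falls. The gene tal1 (ENSDARG00000019930), which encodes a transcription factor that these precursors need, had 0.975, 1.27 and 0.432 CPM in tif1g and 7.68, 4.54 and 1.17 CPM in control libraries, from 27, 38 and 12 counts in tif1g and 223, 134 and 32 counts in control libraries. The groups overlapped, since control replicate 3 was below tif1g replicate 2, while within each replicate number the tif1g library was the lower. The log2 fold change of -2.31 ± 0.76 did not pass without the block (adjusted p = 0.0829) and passed with it (-2.22 ± 0.26, adjusted p = 2.84e-08). It also passed without control replicate 3 (adjusted p = 0.000559), and over the alternatives tried the adjusted p ran from 2.84e-08 to 0.223. The erythroid factor gata1a had 7, 10 and 13 counts in tif1g and 14, 10 and 5 counts in control libraries and was too low to be tested.

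Of 31 tested genes of blood and vessel precursors 6 rose and 5 fell, with a median of -0.1. Over all genes tested 12.2% rose and 13.1% fell, so calls in both directions are not particular to this list. The vessel receptor gene kdrl had 5.7, 4.56 and 4.9 CPM in tif1g and 7.75, 11 and 9.94 CPM in control libraries (-0.92 ± 0.16, adjusted p = 0.00122). The leukocyte actin-binding gene lcp1 had 102, 111 and 118 CPM in tif1g and 158, 182 and 196 CPM in control libraries (-0.70 ± 0.08, adjusted p = 0.000127). Both fell without overlap. The apelin receptor gene aplnrb, which is expressed in migrating mesoderm, had 47.8, 54.8 and 54.3 CPM in tif1g and 27, 25.6 and 30 CPM in control libraries (0.93 ± 0.08), and gata2 had 61.8, 63.7 and 69.7 CPM in tif1g and 42.8, 45.2 and 49 CPM in control libraries (0.51 ± 0.07), and both rose. Named after their values were seen, gfi1aa, a repressor gene of early red cells, had 0.83, 0.637 and 1.01 CPM in tif1g and 3.55, 3.09 and 1.5 CPM in control libraries (-1.72 ± 0.35, adjusted p = 0.00302), and the vessel factor gene fli1 had 5.85, 6.1 and 3.24 CPM in tif1g and 13, 9.32 and 9.21 CPM in control libraries (-1.05 ± 0.23, adjusted p = 0.0086). The members that rose were 3 without tif1g replicate 2 or control replicate 1, and with the block 11 rose and 7 fell. Summed over 7 marker genes of blood and vessel, the level was 29.1 to 31.8 CPM in tif1g and 29 to 46.6 CPM in control libraries, so the ranges overlapped.

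Of 35 heme synthesis and erythroid genes tested 8 rose and 2 fell, with a median of 0.06, beside 12.2% and 13.1% of all genes tested. The rises were 5 without tif1g replicate 2. The falls were 1 without tif1g replicate 2 or 3 or control replicate 3, and 5 with the block. The erythroid factor gene nfe2 had 18.4, 17.6 and 19.2 CPM in tif1g and 12.3, 11.7 and 12.5 CPM in control libraries (0.60 ± 0.09), and alas1, which opens heme synthesis outside red cells, had 59.3, 58.6 and 64.4 CPM in tif1g and 41.6, 42.3 and 45.2 CPM in control libraries (0.50 ± 0.06). Every tif1g library was above every control library for both genes.

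Several Nodal pathway genes rose. Nodal ligands signal through Smad proteins to form mesendoderm. Of 29 members 10 rose and 0 fell, with a median of 0.13, beside 12.2% and 13.1% of all genes tested. By the unadjusted p of edgeR under 0.05, 3 were lower, and DESeq2 called 1 lower. The members that rose numbered 8 to 11 whichever single library was left out, and 1 fell without tif1g replicate 2 or control replicate 2. With the block 14 rose and 3 fell, beside 18.8% and 20% of all genes tested. Among the ligands, ndr2 had 21.2, 19.4 and 20.6 CPM in tif1g and 10.8, 12.3 and 12.1 CPM in control libraries (0.79 ± 0.10) and gdf3 had 12.1, 12.5 and 12.2 CPM in tif1g and 7.68, 7.15 and 6.8 CPM in control libraries (0.77 ± 0.11). The Smad partner gene foxh1 had 50.9, 55.8 and 60.4 CPM in tif1g and 35, 37.9 and 36.2 CPM in control libraries (0.61 ± 0.07). The groups were apart for all 3. The co-receptor gene tdgf1, named after its values were seen, had 39.9, 45.2 and 51.2 CPM in tif1g and 17.7, 25 and 26.7 CPM in control libraries (0.98 ± 0.16, adjusted p = 0.00352).

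Of 19 endoderm genes, a lineage that Nodal induces, 9 rose and 2 fell, beside 12.2% and 13.1% of all genes tested. The median was 0.23. The rises were 4 without tif1g replicate 3 and 5 without control replicate 1 or 2. The gene sox32, which commits cells to endoderm, had 12, 13.8 and 18 CPM in tif1g and 4.51, 6.1 and 7.89 CPM in control libraries (1.24 ± 0.21, adjusted p = 0.00209), and hnf4a had 78.1, 74.3 and 81.6 CPM in tif1g and 36.1, 43.8 and 51.1 CPM in control libraries (0.84 ± 0.11). The members that fell were nkx2.7 (-0.59 ± 0.11, adjusted p = 0.00189) and cxcr4 (ENSDARG00000041959, -0.7 ± 0.13, adjusted p = 0.00133). The sum of 5 endoderm marker genes was 150 to 166 CPM in tif1g and 119 to 143 CPM in control libraries, without overlap. Of these markers 4 rose and 1 fell. Of 54 genes typical of the blastula and early gastrula 19 rose and 3 fell, with a median of 0.21. With the block 32 rose and 6 fell, beside 18.8% and 20% of all genes tested. The falls were 1 without tif1g replicate 1 or 2 or control replicate 2. The stage of the embryos was not measured apart from the time of harvest.

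BMP, FGF and Wnt genes moved in both directions, beside 12.2% of all genes tested that rose and 13.1% that fell. Of 44 BMP and dorsoventral patterning genes 13 rose and 8 fell, with a median of 0.07. Of 32 FGF genes 11 rose and 4 fell (median 0.03), and of 52 Wnt genes 14 rose and 6 fell (median 0.09). The falls in the FGF and Wnt lists were thus close to the share of all genes. The BMP ligand gene bmp7a had 78.1, 74.3 and 79.4 CPM in tif1g and 54.1, 52.6 and 63.2 CPM in control libraries (0.45 ± 0.07), and the kinase gene gsk3b, an inhibitor of Wnt signalling, had 86.6, 83.4 and 78.3 CPM in tif1g and 134, 130 and 137 CPM in control libraries (-0.69 ± 0.05, adjusted p = 1.95e-06). The groups did not overlap for either gene. The Wnt receptor gene fzd2 fell by 0.72 ± 0.07 on the log2 scale and the FGF feedback gene spry1 rose by 0.49 ± 0.09. The Wnt members that rose were 22 with the block. The BMP members that rose were 8 without control replicate 1, and the FGF members that fell were 2 whichever single library was left out.

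Neuronal genes were lower in part. Of 45 primary neurogenesis genes 14 fell and 7 rose, and the median was -0.21. Those that fell numbered 10 to 13 whichever single library was left out, and those that rose were 4 without tif1g replicate 3. The neuronal RNA-binding gene elavl3 had 13.4, 15.6 and 14.9 CPM in tif1g and 24.3, 23.5 and 21 CPM in control libraries (-0.65 ± 0.10, adjusted p = 0.000343), and the neuronal factor gene myt1 (ENSDARG00000074030) had 11.2, 10.6 and 8.03 CPM in tif1g and 28.2, 22.8 and 18.8 CPM in control libraries (-1.23 ± 0.17). Both fell without overlap. The eye field gene rx3 had 29.9, 30.1 and 32.9 CPM in tif1g and 49.2, 42.9 and 51.8 CPM in control libraries (-0.63 ± 0.08), within a list of brain region genes where 8 of 50 fell and 7 rose. With the block 16 of them fell and 10 rose, and the rises were 4 without control replicate 2. The neural crest transcript crestin had 33.2, 31.9 and 33.4 CPM in tif1g and 64.7, 56.3 and 47.1 CPM in control libraries (-0.77 ± 0.10). In the same list zic2 (ENSDARG00000015554) rose (0.35 ± 0.08, adjusted p = 0.00722). Of 33 neural crest genes 3 rose and 4 fell, with a median of -0.06, or 5 and 8 with the block. Over all genes tested 12.2% rose and 13.1% fell, or 18.8% and 20% with the block. Counts of the brain region and neural crest lists were near those shares, other than the brain region falls with the block.

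Of 43 Hox genes 9 fell and 2 rose at a median of -0.12, beside 13.1% and 12.2% of all genes tested. With the block 16 fell and 5 rose, beside 20% and 18.8% of all genes. The rises were 0 without control replicate 2, and 1 without tif1g replicate 1 or 2 or control replicate 1 or 3. The hindbrain gene hoxa2b had 1.44, 2.11 and 1.8 CPM in tif1g and 5.1, 5.12 and 3.51 CPM in control libraries (-1.35 ± 0.23). Of 34 early muscle genes 6 fell and 2 rose at a median of -0.21. The falls were 3 without control replicate 1 and 15 with the block, and the rises were 1 without tif1g replicate 1 or control replicate 2 and 0 without tif1g replicate 2 or control replicate 1 or 3. The myosin chaperone gene unc45b had 153, 163 and 162 CPM in tif1g and 187, 205 and 194 CPM in control libraries (-0.30 ± 0.05).

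The enveloping layer and the yolk syncytial layer held genes that fell and genes that rose, beside 13.1% and 12.2% of all genes tested. Of 48 genes of the enveloping layer, the outermost epithelium, 14 fell and 8 rose, with a median of -0.13, or 15 rose with the block. The envoplakin gene evpla had 387, 356 and 371 CPM in tif1g and 583, 629 and 653 CPM in control libraries (-0.74 ± 0.05, adjusted p = 7.72e-07), and the keratin gene krt5 had 1210, 1110 and 1180 CPM in tif1g and 1670, 1680 and 1650 CPM in control libraries (-0.52 ± 0.04). The more abundant keratin gene krt4 was higher in the model of all 12 libraries (0.19 ± 0.05 in leflunomide). There it had 5970, 5910 and 5750 CPM in tif1g and 5150, 5080 and 5210 CPM in control libraries. The yolk syncytial layer feeds the embryo with lipid from the yolk. Of its 40 genes tested 12 fell and 8 rose, with a median of -0.03. Its lipoprotein genes apobb.1 and apoa2 had 2210, 2410 and 2340 CPM in tif1g and 3170, 3240 and 3350 CPM in control libraries (-0.49 ± 0.04) and 16.9, 26 and 20.4 CPM in tif1g and 40.4, 44.8 and 42.4 CPM in control libraries (-1.01 ± 0.13). The sum of 8 marker genes of this layer was 3090 to 3460 CPM in tif1g and 4130 to 4500 CPM in control libraries, without overlap. The gene apobb.1 alone held most of this sum, and of the 6 markers tested 1 rose and 3 fell. In the model of all 12 libraries the change in leflunomide was -0.03 ± 0.08 for the marker apoa1b and 0.39 ± 0.06 for fetub, another gene of the layer. The sum of 10 marker genes of the enveloping layer was 14400 to 14500 CPM in tif1g and 14300 to 15000 CPM in control libraries, with overlap.

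Of 59 genes of the extracellular matrix 13 fell and 8 rose at a median of -0.16, beside 13.1% of all genes tested that fell and 12.2% that rose. The rises were thus close to the share of all genes, and they were 5 without tif1g replicate 1 or control replicate 2. Fibronectin is encoded by a pair of genes with the symbol fn1, which moved in opposite directions. The less abundant one (ENSDARG00000006526) had 306, 314 and 284 CPM in tif1g and 568, 507 and 497 CPM in control libraries (-0.80 ± 0.06, adjusted p = 1.37e-06). The more abundant one (ENSDARG00000019815), added after its values were seen, had 1600, 1490 and 1530 CPM in tif1g and 1360, 1330 and 1350 CPM in control libraries (0.20 ± 0.04, adjusted p = 0.00252). The hyaluronan synthase gene has2 had 102, 86.5 and 91.1 CPM in tif1g and 69.9, 68.2 and 69.1 CPM in control libraries (0.43 ± 0.06). The groups did not overlap for any of the 3 genes.

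The change that the knockdown made in leflunomide was set against the one it made in DMSO, with all 12 libraries in a single model. No gene of 21400 passed the test of the difference (0%), the smallest adjusted p was 0.0985, and 2560 genes (12%) had an unadjusted p under 0.05, 1504 with a higher and 1056 with a lower value in leflunomide. With the replicate block 721 genes were called with a higher value in leflunomide (3.37%) and 346 with a lower one (1.62%), 4.99% in all, and the Wald test of DESeq2 without the block called 276 and 88. The block counts rested on replicates 1 and 2. They were 17 and 18 without number 1, 17 and 2 without number 2, and 802 and 371 without number 3. The control DMSO libraries stood apart, with TMM factors of 0.926 to 0.958, against 0.979 to 1.006 for tif1g DMSO libraries, 1.017 to 1.035 for tif1g leflunomide libraries and 1.026 to 1.053 for control leflunomide libraries. The nuclear RNA malat1 took 0.48% to 0.55% of counts in the tif1g and 0.501% to 0.561% in the control libraries of leflunomide. In DMSO its share was 0.393% to 0.437% in the tif1g and 0.269% to 0.341% in the control libraries. The part of these shifts in the differences was not tested.

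Named genes differed in how far the libraries bound a difference between the media, and none passed in edgeR after adjustment without the block. In this fit trim33 changed by 2.37 ± 0.06 in leflunomide and 2.34 ± 0.06 in DMSO, a difference of 0.03 ± 0.08 (adjusted p = 0.938) with a 95% interval of -0.15 to 0.21. The difference was 0.04 ± 0.10 for ranbp3 (interval -0.20 to 0.28) and -0.07 ± 0.11 for ly75 (interval -0.33 to 0.19). For dhodh it was 0.28 ± 0.14 (-0.63 ± 0.10 in leflunomide and -0.91 ± 0.10 in DMSO, adjusted p = 0.457, interval -0.05 to 0.62). The interval for tal1, -2.19 to 3.86, was too wide to compare its changes. Before adjustment, intervals that left out 0 were found for 46 of 183 genes examined for this difference. Those genes were named mostly for their change in leflunomide, a part of the difference, so their share is not that of genes at large. Over all 21400 genes 12% had an unadjusted p under 0.05 in edgeR. Among the 46 were en2 (ENSDARG00000026599, -0.80 ± 0.34, interval -1.58 to -0.02, adjusted p = 0.343), phlda3 (0.76 ± 0.20, interval 0.30 to 1.22, adjusted p = 0.153) and casp8 (0.91 ± 0.27, interval 0.29 to 1.52, adjusted p = 0.194). With the block phlda3 and casp8 passed (adjusted p = 0.0156 for phlda3 and adjusted p = 0.0133 for casp8).

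Of the gene lists, that of the cytosolic ribosomal proteins held the most members called with the block. The median knockdown effect over the 81 members was 0.03 in leflunomide and -0.23 in DMSO, and the median difference was 0.28, beside 0.013 over all genes tested. The difference was above 0 in 80 of 81 members, and 66 were called higher with the block, beside 3.37% of all genes tested. Without the block 0 were called. Members measured in the same libraries are not replicates of each other, so their number is no separate evidence. Over all genes, most calls with the block were lost without replicate number 1 or 2. The acidic stalk protein gene rplp2l had 337, 341 and 313 CPM in tif1g and 322, 323 and 333 CPM in control libraries in leflunomide, and 315, 295 and 337 CPM in tif1g and 451, 389 and 399 CPM in control libraries in DMSO. Its level was highest in the control DMSO libraries and overlapped among the other 3 groups, and the difference with the block was 0.41 ± 0.07 (adjusted p = 0.00207, against adjusted p = 0.121 without it). Genes of the ATP synthase had medians of 0.1 in leflunomide and -0.25 in DMSO, those of complex I 0.04 and -0.23, and those of the yolk syncytial layer -0.02 and -0.39. The 13 mitochondrially encoded mRNAs went the other way, with medians of 0.1 in leflunomide and 0.32 in DMSO, and 0 of 13 members had a difference above 0.

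Members of the p53 list had a median of 0.43 in leflunomide and 0.28 in DMSO. With the block 6 of 32 were called higher in leflunomide, beside 3.37% of all genes tested. The gene rps27l had 56.3, 53.2 and 46.2 CPM in tif1g and 26.1, 25.6 and 25.2 CPM in control libraries in leflunomide, and 48, 35.3 and 44.6 CPM in tif1g and 38.7, 30.8 and 34.5 CPM in control libraries in DMSO. The control libraries were lower in leflunomide than in DMSO and the tif1g libraries higher on average, and the difference with the block was 0.72 ± 0.11 (adjusted p = 0.000687, against adjusted p = 0.121 without it). The yolk syncytial layer gene hnf4b, which encodes a nuclear receptor, had 33.3, 34.8 and 33.5 CPM in tif1g and 35.6, 38 and 38 CPM in control libraries in leflunomide, and 29.4, 30.3 and 30.4 CPM in tif1g and 51.9, 46.5 and 47.8 CPM in control libraries in DMSO. Its control DMSO libraries were above the other 9 libraries, and the difference with the block was 0.56 ± 0.09 (adjusted p = 0.000882). The Hox gene hoxc6 (ENSDARG00000070343) had 38.8, 35 and 36.5 CPM in tif1g and 33.3, 33.7 and 30.5 CPM in control libraries in leflunomide, and 35, 33.5 and 36.1 CPM in tif1g and 19.2, 21.2 and 24.1 CPM in control libraries in DMSO, with the control DMSO libraries below the rest and a difference of -0.52 ± 0.11 with the block (adjusted p = 0.00441).

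**Figure D5:**
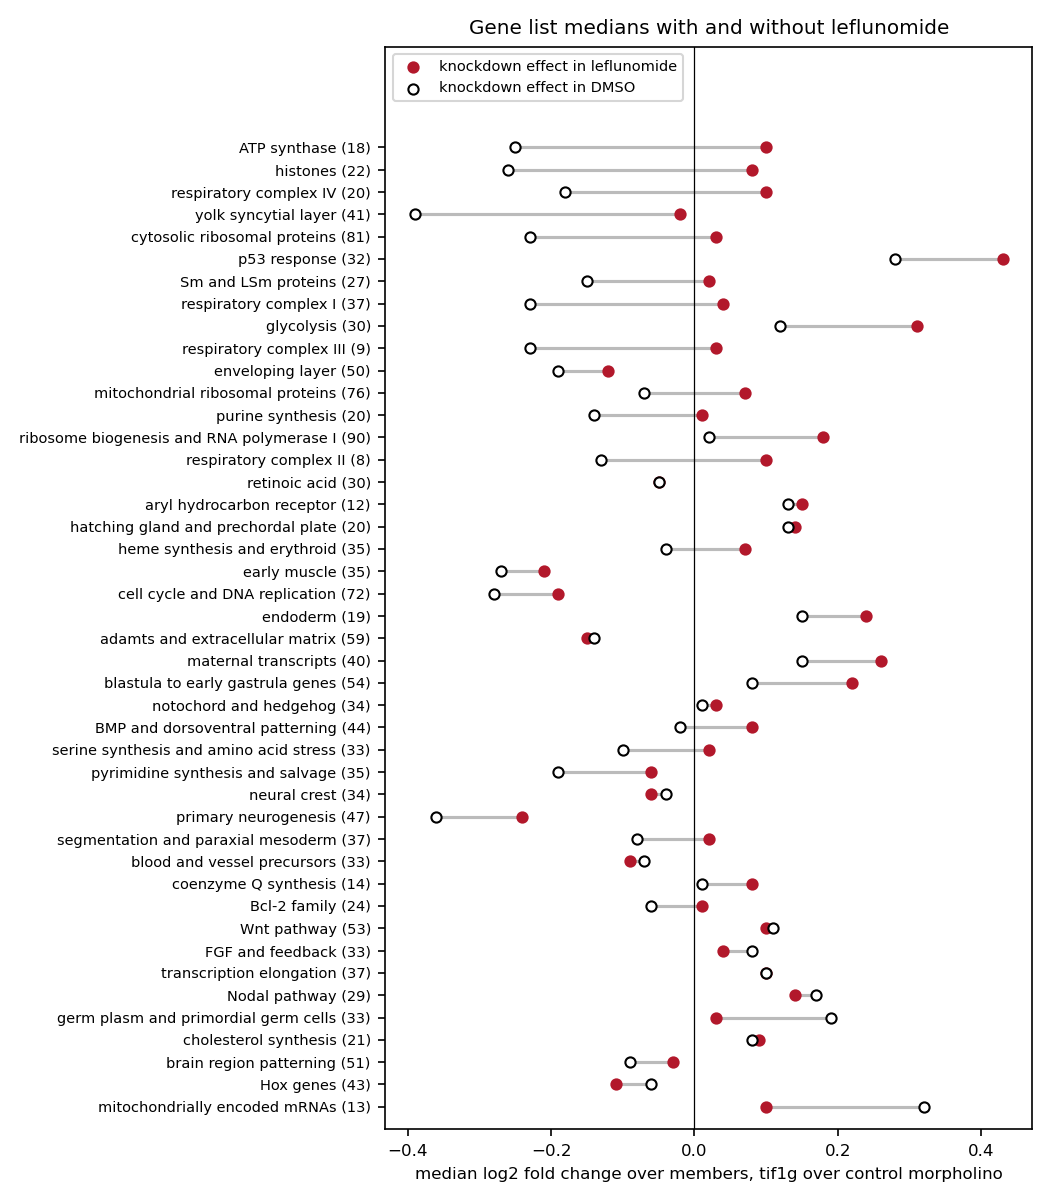
Median log2 fold change, tif1g over control morpholino, over the members of each gene list in leflunomide (filled red) and in DMSO (open), from the model of all 12 libraries. The ribosomal protein list lies at 0.03 in leflunomide and -0.23 in DMSO, and the mitochondrially encoded mRNAs at 0.1 and 0.32.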

How the data were processed

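The authors deposited raw counts of reads per gene, whole numbers for 32520 Ensembl genes, in a table of the whole series. Per the submitters' processing notes, FastQC, cutadapt, TopHat2 2.0.11, Cufflinks 2.2.1, HTSeq and build GRCz11 were used, and per the labels the RNA was depleted of ribosomal RNA and the libraries were directional. Neither strand setting nor annotation release was stated in the labels, and overlapping genes on opposite strands may share reads. Symbols came from a table that matched 29201 identifiers, and 1423 tested genes had none.

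Genes were filtered with filterByExpr in edgeR 4.0.16 (R 4.3.3), which kept 20655 of 29746 with a count, scaled with TMM factors and fitted by the robust quasi-likelihood method with 1 mean per group over the 6 leflunomide libraries (biological coefficient of variation 0.107). Adjusted p-values are Benjamini-Hochberg values of that edgeR test over all genes tested, and calls are made under 0.05 with no fold minimum. Standard errors belong to log2 fold changes. For edgeR they were derived from the test, as the size of the log2 fold change divided by the square root of its F statistic. The difference between media came from 1 model of 12 libraries and 4 group means, and its 95% intervals use the residual degrees of freedom alone. The script was tested on simulated data with known fold changes.

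The main tests did not pair the libraries, and replicate numbers entered a model only as the replicate block. Deviations from the group mean correlated at 0.238 to 0.279 between libraries of the same number and at -0.168 to -0.092 otherwise. Deviations cancel out within a group, so the negative values follow from the positive ones and are no separate result. The series description says that each clutch was divided over treatments, but whether a number is a clutch is not given, so p-values measure the spread between these pooled samples. Alternatives were other scalings, no filter, the replicate block, DESeq2 1.42.0, limma-voom (limma 3.58.1), the 12-library fit and leaving libraries out.

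Genes were named by a rule: trim33, dhodh, tal1 and gata1a, the 15 largest called rises and falls with a mean level from 1 on the log2 CPM scale and 1 direction in all replicate numbers, and up to 4 called members of each of 45 lists by smallest p, of which some are described. For the difference, where no gene was called without the block, up to 3 members per list and the 8 largest each way were taken from the block fit. The genes trim24, trim33l, mdm2, cdkn1a, btg2, bcl2a, umps, gfi1aa, fli1, tdgf1 and the more abundant fn1 gene fall outside the rule and were chosen after their values were seen. Members and lists were chosen with earlier results of these data known. No gene positions, lengths or base composition were analysed here, and some genes that the rule or the lists take are not reported here.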

Additional observations from a re-analysis of the deposited data

Results flagged for a closer look

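The 35 genes below were chosen because their knockdown effect differed between leflunomide and DMSO in edgeR with the replicate block (adjusted p under 0.05). Their passing in that model was thus fixed by the choice, and over all genes tested it called 4.99%. None of the 35 passed in edgeR without the block, while DESeq2 without the block called 17 of the 35. All values are differences on the log2 scale, leflunomide minus DMSO. The count of genes called with the block over the whole table fell to 17 higher and 18 lower without replicate number 1, and to 17 and 2 without number 2.

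The largest positive differences were those of nkx2-4 (ENSDARG00000075107, 0.97), casp8 (0.92), nucb2 (ENSDARG00000036291, 0.88), mif (0.87), xirp1 (ENSDARG00000030722, 0.80), stra6 (0.79), phlda3 (0.77) and sec14l1 (ENSDARG00000103991, 0.76). The largest negative ones were those of nipal4 (-1.30), gpr22 (ENSDARG00000004592, -1.23), hpca (-1.23), cyld3 (-1.19), scx (-1.18), angptl1 (-1.08), pclo (-1.08) and brinp3 (-1.07).

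Among genes of ribosomes, RNA processing and chromatin, the differences were 0.72 for rps27l, also of the p53 response, 0.41 for rplp2l, 0.47 for the mitochondrial ribosomal protein gene mrpl44, 0.43 for the rRNA processing gene utp15, 0.38 for the splicing gene snrpa1 and 0.56 for the histone gene hist1h2a3. Among metabolic and stress genes they were 0.50 for the nucleoside diphosphate kinase gene nme1, 0.36 for the purine synthesis gene paics, 0.45 for cox7c of complex IV, 0.51 for atp5mf of the ATP synthase, 0.31 for the glycolysis gene aldoa (ENSDARG00000011665) and 0.41 for the stress gene ddit4, against -0.34 for mt-nd4, which is encoded in the mitochondrion. Among the remaining genes they were 0.32 for the cyclin gene ccnb1, -0.26 for the Wnt receptor gene fzd3 (ENSDARG00000021664), -0.52 for hoxc6 (ENSDARG00000070343), 0.34 for the keratin gene krt99, 0.56 for hnf4b and 0.32 for the laminin gene lamb1 (ENSDARG00000101209).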

How the results depend on the processing

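In leflunomide, 2511 genes were higher and 2708 lower. With the replicate block the counts were 3873 and 4135, and over fits that left out a library or a replicate number they ran from 1162 to 2251 higher and from 1327 to 2308 lower, with fewer samples in each fit. Other scalings, no filter, DESeq2, limma-voom and the 12-library fit stayed within 1.5 times of both counts. Of 183 named genes tested 182 were called, which the naming rule fixed, since it took called genes with large changes or small p. Of these 182, 135 were called under every alternative, 47 lost the call at least once and 0 changed sign. The replicate block brought tal1 past the threshold and changed no other call among the 183. Over all 507 called members of the lists, 313 kept the call whichever single library was left out and 194 lost it at least once.

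For the difference between media, the counts higher and lower were 0 and 0, 721 and 346 with the replicate block, 276 and 88 with DESeq2, 0 and 3 with library totals, and 0 and 1 without the filter. Over fits that left out a library or number, with or without the block, they ran from 0 to 802 and from 0 to 371. The block fits without a number, chosen after seeing the data, gave 17 and 18 without number 1, 17 and 2 without number 2, and 802 and 371 without number 3. The cause was not tested. With 3 pooled samples per group, genes of few counts such as gata1a were not testable at this depth.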
